A study of Homo sapiens with 6 samples.

Results

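The respiratory chain and ATP synthase genes described here are the nuclear genes for subunits, carriers, assembly factors and the inhibitor of oxidative phosphorylation, chosen by gene symbol alone (names beginning NDUF, SDHAF, UQCR, UQCC, COX followed by a digit, or ATP5, with SDHA to SDHD, CYC1 and CYCS). The rule matched 47 symbols on the array, of which 43 were protein-coding, out of 14812 genes tested. They were 2 assembly factors of complex I, 4 of complex II, 6 subunits and 5 assembly factors of complex III, 16 subunits and 7 assembly factors of complex IV, and 3 proteins of complex V. The structural subunits of complexes I and II, cytochrome c itself and most ATP synthase subunits are not analysed here, so complex I and complex II are represented only by the proteins that build them.

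The cells were C4-2, an established human line of prostate cancer that descends from LNCaP, kept in medium with hormones. Their RNA was hybridised to Affymetrix Human Gene 2.0 ST arrays. The groups were cells given 1 µM NU7441 for 24 h, cells depleted of DNA-PKcs over 96 h with pooled PRKDC siRNA (knockdown), and DMSO-treated control cells, with 2 samples each that the labels call biological replicates. Nothing says whether these were separate cultures, so the p-values measure the spread between these samples. NU7441 is a small molecule that occupies the ATP site of DNA-PKcs, the kinase of DNA end joining that PRKDC encodes. The labels also speak of a control siRNA pool, but not of whether the control arrays' cells received it, so depletion and transfection cannot be told apart. No treatment time is recorded for the control cells, so neither treatment can be told apart from a difference in time. PRKDC itself is not analysed here. The cells were sampled in bulk, so a shift in the make-up of a culture and a change of RNA per cell cannot be told apart.

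Complexes I and II take electrons from NADH and succinate and pass them to ubiquinone. Complex III hands them to cytochrome c, and complex IV, cytochrome c oxidase, gives them to oxygen. The proton gradient made on the way drives ATP synthase, also called complex V. Complex IV is built around a catalytic core encoded by mitochondrial DNA, to which the nuclear COX4 to COX8 subunits are added, with the help of dedicated assembly factors that insert copper and haem or hold subunits in place. Prostate cancer cells are known for using respiration more than normal prostate epithelium does.

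Values are linear intensities as the authors deposited them, with a lower limit of 16 on every array, and they are comparable between arrays of 1 gene but not between genes. The 6 measured luminal prostate markers of 10 (KLK3, KLK2, FOLH1, HOXB13, KRT8 and KRT18) had control means between 85.9 and 1064. The 10 measured markers of basal, leukocyte, fibroblast, endothelial and neuroendocrine cells stayed at 63.2 or below on every array. The summed luminal level was 3231 to 3558 under NU7441, 2686 to 2802 after knockdown and 2821 to 2924 in controls, and its part in the results was not tested. The array medians over all probesets were 24.6 and 26 for NU7441, 28.4 and 27.6 for knockdown, and 31.5 and 31.6 for control, while the 95th percentiles lay between 289 and 299. The 2 NU7441 arrays differed more from each other than the arrays of the other groups: the median gap between replicates over the 43 genes was 0.26 on the log2 scale for NU7441, 0.10 for knockdown and 0.09 for control. Replicate 1 was the lower of the pair for 28 of the 43 genes under NU7441, 17 after knockdown and 37 in controls, so the small gap between the control arrays ran mostly in 1 direction.

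NU7441 split the complex IV genes. Of the 10 subunits found in most tissues, 7 rose (COX4I1, COX5B, COX6A1, COX6C, COX7A2, COX7C and COX8A), 1 fell (COX5A), and COX6B1 and COX7B did not pass the test. Changes were modest, with rises of 1.24-fold to 1.53-fold and a fall of 1.86-fold for COX5A. Over all 43 genes, 11 were higher and 6 lower in NU7441-treated cells past an adjusted p of 0.05 in limma's moderated test, and 26 did not pass. Among all genes tested, 10.8% were higher and 22.4% lower, 33.2% in all. Without a mean-variance trend in the fit, 2 of the 10 common complex IV subunits were higher and 1 lower. The share of all genes called in that fit is not given here.

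That background depended on the brightness of the probesets, and the respiratory genes included both bright and dim ones. Of all 1338 genes with a mean log2 intensity of at least 8 (an intensity of 256), 39.0% were higher and 28.5% lower under NU7441 (67.5% in all), with a median log2 fold change of 0.21, against −0.23 over all genes. Of the 24 respiratory genes this bright, 11 were higher (45.8%) and 5 lower (20.8%), shares close to those of bright genes in general. Of the 19 dimmer ones, 0 were higher and 1 was lower (5.26%) by limma, beside 10.8% higher and 22.4% lower of all genes. The share among dim genes alone was not counted, so these counts do not describe the dimmer genes as a set. At an unadjusted p under 0.05, where the share of all genes was not counted, 0 of the 19 were higher and 5 lower. The median log2 fold change of the 43 genes was 0.18 above that of all genes as deposited and, after quantile normalization, −0.15 relative to all genes, so the direction of the whole set depends on the scaling. The 10 common complex IV subunits lay at 0.61 relative to all genes, and at 0.30 after quantile normalization. All 10 were bright, however, and their own median log2 fold change was 0.37, beside 0.21 for bright genes in general. Their mean log2 intensities ran from 8.49 for COX5B to 11.28 for COX6A1, and the bright genes were not matched to them in brightness.

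**Figure D1:**
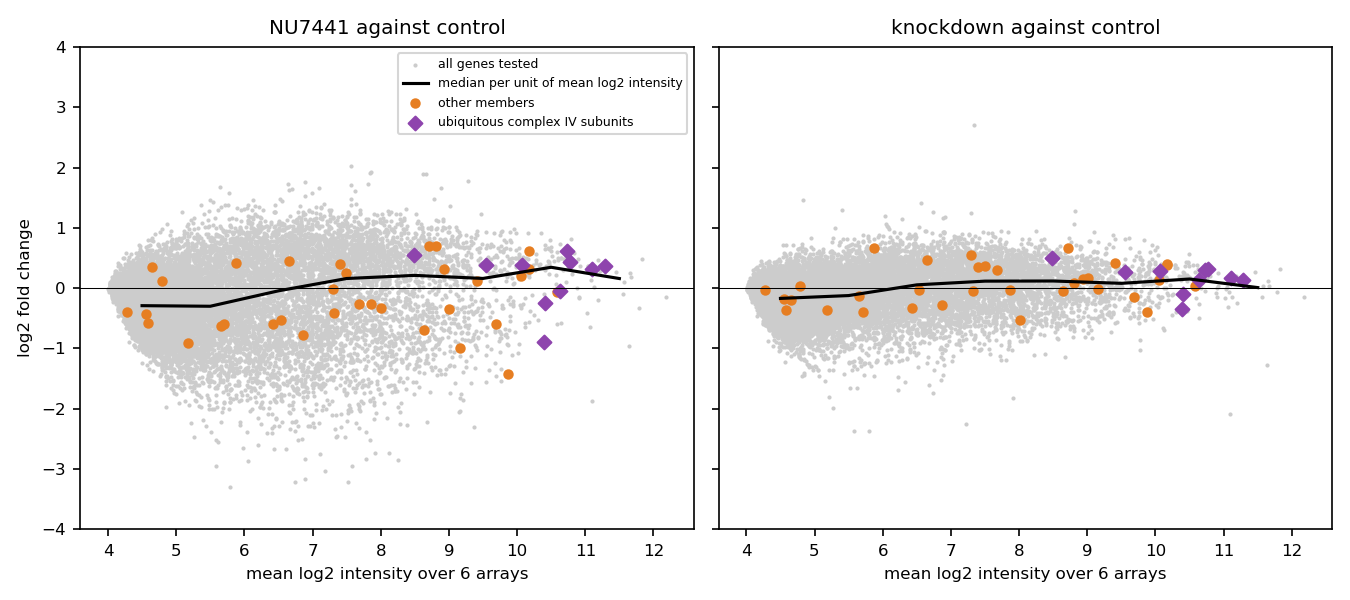
Log2 fold change against mean log2 intensity over the 6 arrays for all 14812 genes (grey), the 10 common complex IV subunits (diamonds) and the other 33 respiratory genes (circles), NU7441 against control on the left and knockdown against control on the right; the line is the median of all genes per unit of intensity. The complex IV subunits lie at the bright end, where the median of all genes is above 0 under NU7441, and COX5A is the diamond far below the line on the left.

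COX8A, the smallest common subunit of complex IV, had intensities of 2077 and 2109 under NU7441, 1667 and 1723 after knockdown, and 1299 and 1445 in controls. Its groups did not overlap, and it was 1.53-fold higher under NU7441 than in controls (log2 fold change 0.61 ± 0.07, SE, n = 2 per group, adjusted p = 9.07e-04). COX7C, a membrane-spanning subunit, had 2053 and 1914 under NU7441, 1827 and 1850 after knockdown, and 1451 and 1489 in controls. Both NU7441 arrays lay above both control arrays (0.43 ± 0.07, adjusted p = 0.00219). COX4I1, the common form of the subunit that binds adenine nucleotides and tunes the enzyme, had 2435 and 2445 under NU7441, 2231 and 2201 after knockdown, and 1929 and 2014 in controls. This was a small rise with tight replicates (0.31 ± 0.06, adjusted p = 0.00469). COX5B, a zinc-binding subunit on the matrix side, had 406 and 421 under NU7441, 408 and 391 after knockdown, and 264 and 299 in controls. Both treatments lay above both controls, and the rise under NU7441 was 0.56 ± 0.13 (adjusted p = 0.012).

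COX6C (0.38 ± 0.10) and COX7A2 (0.39 ± 0.10) rose as well. The call on COX6C was lost in 5 of 14 alternatives, among them the fit of the compared groups alone and omission of control replicate 1. Omission of either knockdown replicate lost it too, but is nearly the same fit as the compared groups alone and no separate check. The calls on COX5B and COX7A2 were lost without either control replicate. Those on COX4I1, COX6A1, COX6C, COX7A2 and COX7C were lost when the fit had no mean-variance trend. COX6A1 rose on its brighter probeset, with 2888 and 2851 under NU7441, 2513 and 2350 after knockdown, and 2188 and 2254 in controls (0.37 ± 0.06). Its other probeset was dim, with 23.5 and 20.9 under NU7441, 25.9 and 19.9 after knockdown, and 40.0 and 39.8 in controls, and was lower under NU7441 (−0.85 ± 0.22), so the 2 probesets of COX6A1 disagree. COX5A, which lies next to COX5B on the matrix side of the enzyme, went the other way, with 778 and 1185 under NU7441, 1494 and 1324 after knockdown, and 1739 and 1829 in controls. All 4 treated arrays lay below both controls, the NU7441 arrays lowest, and the NU7441 change was −0.89 ± 0.16 (adjusted p = 0.0046). COX6B1, the subunit that bridges the monomers of the dimeric enzyme, was at −0.25 ± 0.09 (adjusted p = 0.0504), and COX7B at −0.05 ± 0.07. Many COX genes have processed copies elsewhere in the genome, so some probes may read related sequences.

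**Figure D2:**
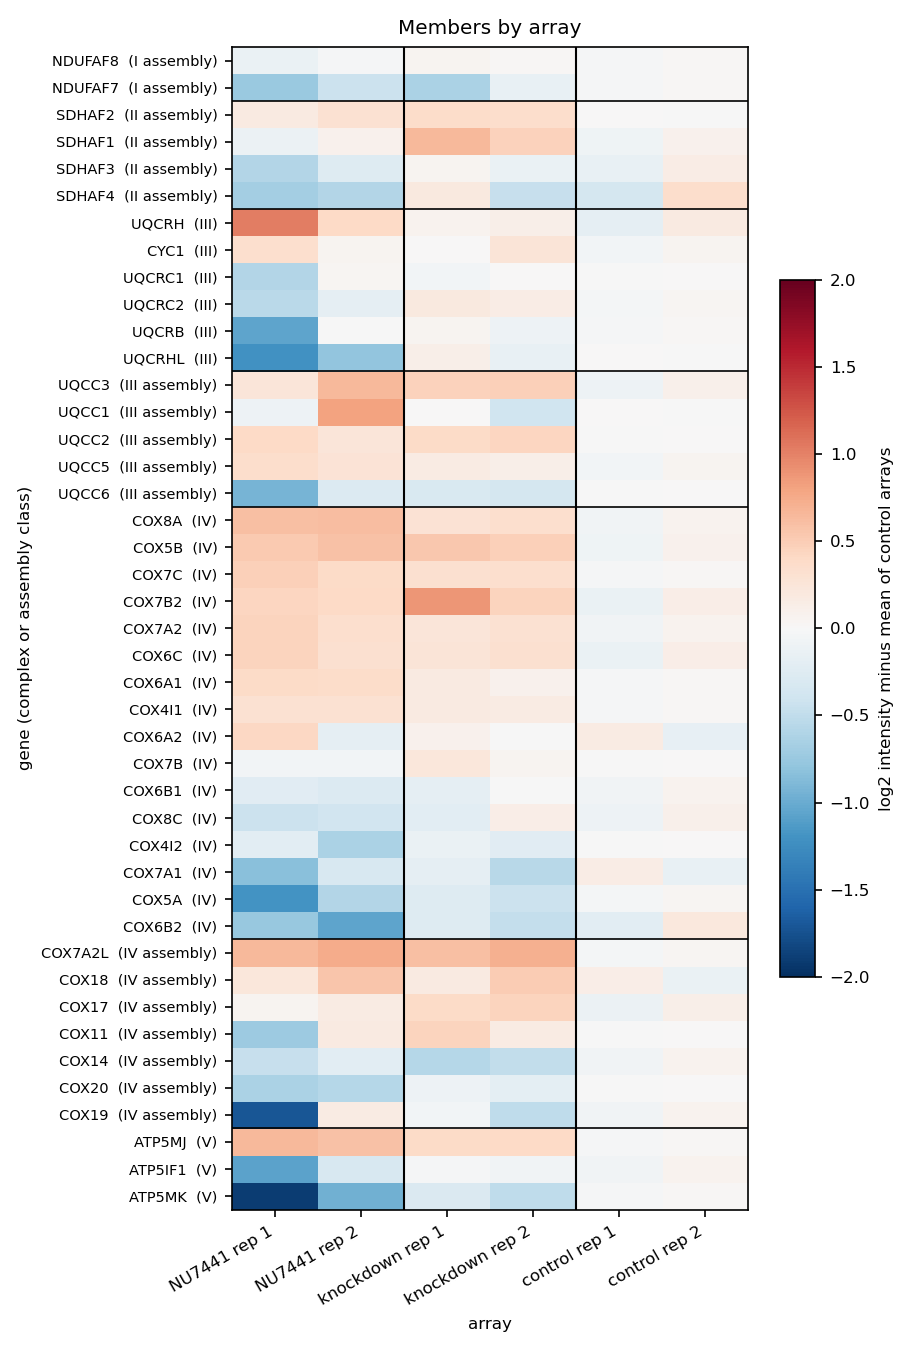
Log2 intensity of each of the 43 genes on each of the 6 arrays minus the mean of the 2 control arrays, grouped by complex and ordered by the NU7441 fold change. In complex IV, 7 common subunits are raised on both NU7441 arrays, with the dim COX7B2 placed among them. COX5A and the dim COX6B2 are at the other end, and NU7441 replicate 1 has the deepest blues (ATP5MK and COX19).

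The 6 complex IV isoforms of restricted tissues were dim on every array, with no intensity above 84.2. COX6B2, a testis form, was the 1 that fell under NU7441, with 28.6 and 23.3 there, 40.8 and 34.8 after knockdown, and 41.9 and 56.1 in controls (−0.91 ± 0.26, adjusted p = 0.0249). Its call was lost after quantile normalization, after median centring and without either control replicate (adjusted p 0.00494 to 0.248 over the alternatives). COX4I2, a lung form linked to low oxygen, and COX7A1, a heart and muscle form, were near the lower limit, at 23.5 and 17.4 and at 16.7 and 23.9 under NU7441, and did not pass. COX7B2 had 61.7 and 60.5 under NU7441, 84.2 and 62.3 after knockdown, and 42.0 and 50.2 in controls, and did not pass either (0.41 ± 0.25). COX6A2 (0.12 ± 0.25) and COX8C (−0.40 ± 0.17) did not pass and had no intensity above 35.6.

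Among the 7 factors of complex IV assembly, 1 rose and 1 fell under NU7441 (14.3% each, beside 10.8% higher and 22.4% lower of all genes). COX7A2L, which helps to join complex III to complex IV in supercomplexes, had 483 and 512 under NU7441, 466 and 504 after knockdown, and 299 and 316 in controls. Both treatments lay well above both controls, and the rise under NU7441 was 1.62-fold (0.69 ± 0.12, adjusted p = 0.00372). COX20, a chaperone of the mitochondrially encoded subunit COX2, had 634 and 659 under NU7441, 911 and 857 after knockdown, and 980 and 985 in controls. It fell 1.52-fold under NU7441 (−0.60 ± 0.09, adjusted p = 0.00197). COX19, a copper-handling protein of the intermembrane space, split the NU7441 replicates, at 45.3 and 166, against 141 and 157 in controls, and did not pass (−0.78 ± 0.48). COX11 and COX17 of copper delivery (−0.27 ± 0.27 and 0.11 ± 0.11), COX14 of early assembly (−0.33 ± 0.15) and the insertase COX18 (0.39 ± 0.20) did not pass.

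The 3 measured proteins of complex V all passed the test, in both directions. All 3 were bright, and 67.5% of bright genes passed, so the values below describe single genes and not the complex. ATP5MK, a small membrane subunit at the dimer interface of ATP synthase, had the lowest fold change of the 43 genes, with 383 and 737 under NU7441, 1171 and 1007 after knockdown, and 1409 and 1450 in controls. It was 2.69-fold lower under NU7441 (−1.43 ± 0.24, adjusted p = 0.00326), with replicate 1 the lower of the pair. ATP5MJ, another small membrane subunit, had 1436 and 1372 under NU7441, 1186 and 1203 after knockdown, and 904 and 924 in controls. It rose 1.54-fold (0.62 ± 0.08, adjusted p = 9.89e-04), and neither treatment overlapped the controls. ATP5IF1, the inhibitor that keeps the synthase from running backwards, had 225 and 380 under NU7441, 465 and 451 after knockdown, and 450 and 499 in controls. It fell under NU7441 (−0.70 ± 0.21, adjusted p = 0.0328), but the call was lost in 8 of 14 alternatives, among them median centring and the omission of either control replicate (adjusted p 4.66e-06 to 0.184 over the alternatives).

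**Figure D3:**
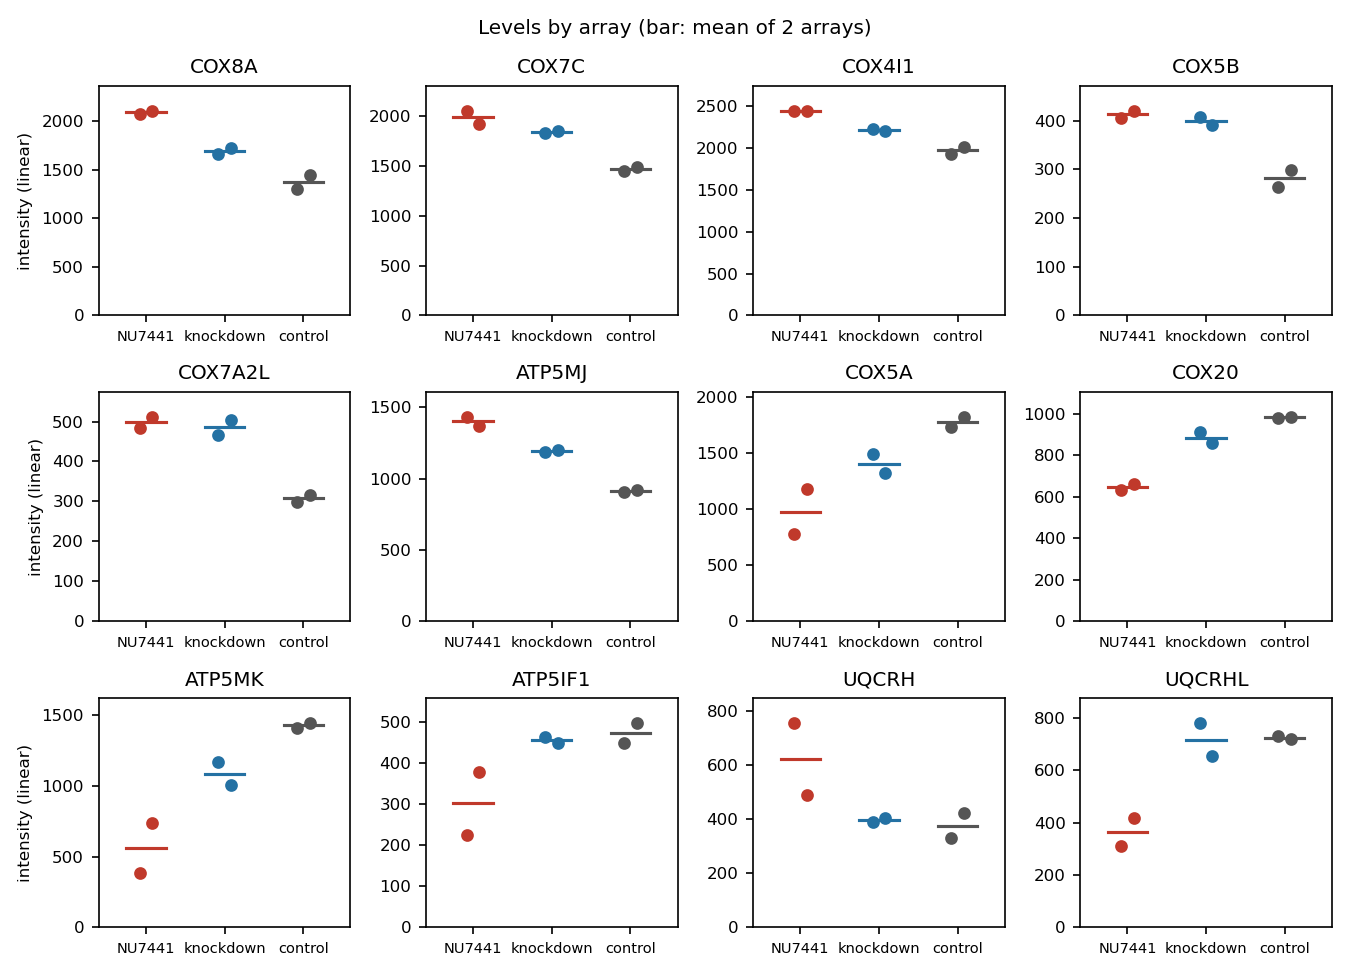
Intensity on each array for 12 genes, with NU7441, knockdown and control from left to right; points are arrays and bars the mean of 2. COX8A, COX7C, COX4I1, COX5B, COX7A2L and ATP5MJ are lowest in controls, COX5A, COX20 and ATP5MK are highest in controls, and UQCRH and UQCRHL have opposite orders under NU7441.

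Of the 6 complex III subunits, 1 rose and 1 fell (16.7% each, beside 10.8% higher and 22.4% lower of all genes), and these were a gene and its near copy. UQCRH, the acidic hinge protein between cytochrome c1 and cytochrome c, had 757 and 491 under NU7441, 391 and 404 after knockdown, and 331 and 422 in controls. It rose under NU7441 (0.71 ± 0.20, adjusted p = 0.0249), with replicate 1 far above replicate 2. UQCRHL, an intronless copy of UQCRH, had 312 and 418 under NU7441, 782 and 652 after knockdown, and 729 and 718 in controls, a fall of 1.00 ± 0.15 on the log2 scale (adjusted p = 0.00219). Their sequences are so alike that probes may read both genes, so which transcript each value reflects is uncertain. UQCRC1 and UQCRC2, the large core proteins (−0.27 ± 0.20 and −0.36 ± 0.14), UQCRB, which helps to form the quinone site (−0.53 ± 0.31), and CYC1, which is cytochrome c1 (0.20 ± 0.12), did not pass. The call on UQCRH was lost without either control replicate and in 4 other alternatives (adjusted p 2.65e-05 to 0.182), whereas those on UQCRHL, COX5A, COX8A, COX20, COX7A2L, ATP5MJ and ATP5MK held in all 14.

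Of the 18 assembly factors of all complexes, 2 were higher (11.1%) and 1 lower (5.56%) under NU7441, beside 10.8% and 22.4% of all genes. The difference between them and the subunits was not tested. UQCC2, which helps to translate and assemble cytochrome b of complex III, had 1282 and 1150 under NU7441, 1267 and 1309 after knockdown, and 975 and 976 in controls. It rose by 0.32 ± 0.08 (adjusted p = 0.0184), and the call was lost after quantile normalization and in 4 other alternatives (adjusted p 0.00121 to 0.171). The other complex III factors did not pass, from −0.60 ± 0.25 for UQCC6 to 0.45 ± 0.22 for UQCC3, with UQCC5 at 0.31 ± 0.11 (adjusted p = 0.0546). UQCC1 was near the lower limit, with 22.6 and 42.4 under NU7441. NDUFAF8, a complex I factor, had 1409 and 1524 under NU7441, 1600 and 1573 after knockdown, and 1523 and 1559 in controls, with a log2 fold change of −0.07 ± 0.07. NDUFAF7, a methyltransferase of complex I assembly, was at −0.59 ± 0.26 without passing. The 4 complex II factors lay between −0.64 ± 0.32 for SDHAF4 and 0.24 ± 0.16 for SDHAF2, the factor that helps to attach FAD to SDHA, and none passed by limma, at an adjusted or an unadjusted p under 0.05.

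**Figure D4:**
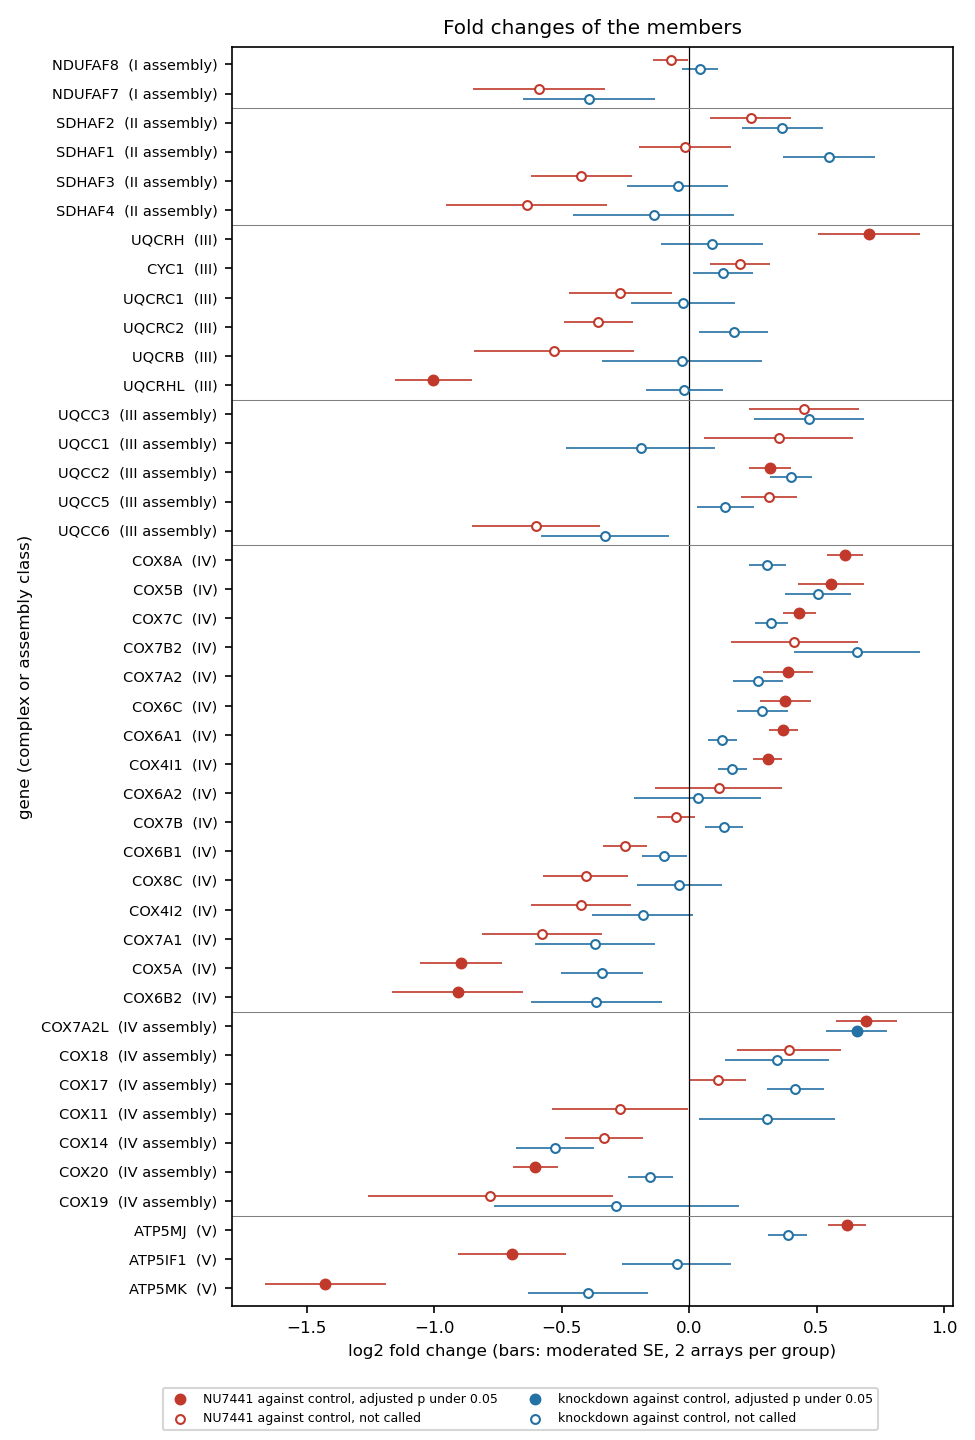
Log2 fold change of each of the 43 genes with its moderated standard error (2 arrays per group), NU7441 against control in red and knockdown against control in blue; filled points have an adjusted p under 0.05. In red, 11 genes are filled to the right of 0 and 6 to the left; in blue, COX7A2L is the 1 filled point.

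The promoters of some of these genes are shown because genes of the respiratory chain are known to share binding sequences for the ETS factor GABP, for NRF1 and for YY1, and because genes with and without them moved under NU7441. RefSeq promoter windows of 300 bases (250 before the transcription start and 50 after it, GRCh38.p14, first listed start of each gene) were matched for 35 of the 43 genes. The letters CCGGAAG (ETS), on either strand, were in 10 of the 35 windows (28.6%), against 10.7% of the windows of 27305 genes. Those 27305 were not limited to protein-coding genes or to genes tested here, so the 2 sets are unlike. The NRF1 motif (GCGCA, then any base, then GCGC) was in 10 (28.6%, against 6.28%), and AAGATGGCG (YY1) in 2 (5.71%, against 1.85%). The ETS letters were in 5 of the 10 windows of genes that rose under NU7441, 1 of the 5 of genes that fell, and 4 of the 20 of genes that did not pass. The NRF1 letters were in 2, 0 and 8 of them, and the YY1 letters in 1, 0 and 1. A match describes the letters and is no evidence of binding.

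The excerpts below run from 100 bases before the start to 30 after it, 5′ to 3′ on the strand of the gene, with the matched letters in capitals. COX8A (chr11:63974520-63974649, plus strand) and COX4I1 (chr16:85799595-85799724, plus strand), which rose, each carry 1 ETS match near the start, on the opposite strand. ATP5MJ (chr14:103921500-103921629, minus strand) carries 1 NRF1 match, and UQCC2 (chr6:33711671-33711800, minus strand) an NRF1 and a YY1 match; both rose. COX5A (chr15:74938044-74938173, minus strand), which fell, has none of the 3 in its window. ATP5MK (chr10:103396446-103396575, minus strand), which fell as well, has 3 ETS matches in its window, 1 of them at the start. The matches that begin at −163 and −160 relative to the start overlap each other on opposite strands.
COX8A: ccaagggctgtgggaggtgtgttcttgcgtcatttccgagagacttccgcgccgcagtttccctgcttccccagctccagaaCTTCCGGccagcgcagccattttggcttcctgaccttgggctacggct
COX4I1: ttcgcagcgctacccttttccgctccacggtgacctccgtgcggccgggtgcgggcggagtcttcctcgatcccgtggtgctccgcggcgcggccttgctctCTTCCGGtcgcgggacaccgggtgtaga
ATP5MJ: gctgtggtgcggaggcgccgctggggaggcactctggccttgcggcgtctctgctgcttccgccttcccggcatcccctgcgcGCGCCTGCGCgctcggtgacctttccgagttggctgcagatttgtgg
UQCC2: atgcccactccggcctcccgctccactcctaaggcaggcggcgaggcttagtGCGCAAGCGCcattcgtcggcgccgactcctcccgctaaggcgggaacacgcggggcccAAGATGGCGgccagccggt
COX5A: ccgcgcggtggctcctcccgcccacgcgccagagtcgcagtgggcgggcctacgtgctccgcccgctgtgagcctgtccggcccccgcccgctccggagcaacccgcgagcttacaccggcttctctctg
ATP5MK: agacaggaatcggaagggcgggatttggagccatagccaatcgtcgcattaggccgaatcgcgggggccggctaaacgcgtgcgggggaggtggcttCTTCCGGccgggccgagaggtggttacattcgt

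The number of calls under NU7441 changed with the arrays used. Without control replicate 1 or 2 it was 10 and 11. Without NU7441 replicate 1 it was 21, and without NU7441 replicate 2 it was 29 (13 higher and 16 lower), each with 1 array left for the group. After median centring 20 genes were higher and 4 lower, and the median log2 fold change of all genes was 0.08, against −0.23 as deposited. The shares of all genes called in these fits are not given here. The counts therefore describe how the calls depend on the fit and not the set.

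After DNA-PKcs knockdown 1 of the 43 genes passed, COX7A2L, which was 1.58-fold higher than in controls (0.66 ± 0.12, adjusted p = 0.0472); among all genes 0.284% were higher and 0.486% lower (0.770% in all), and among bright genes 2.39% and 1.49% (3.89% in all). At an unadjusted p under 0.05, 14 genes were higher and 1 lower. The share of all genes at this threshold was not counted, so these counts describe single genes and not the set. COX7B2 had the highest fold change (0.66 ± 0.25, adjusted p = 0.196), followed by COX7A2L, SDHAF1, an iron-sulfur cluster factor of complex II (0.55 ± 0.18, adjusted p = 0.149), COX5B (0.51 ± 0.13, adjusted p = 0.0878) and UQCC3 (0.47 ± 0.22, adjusted p = 0.267). The lowest were COX14 (−0.53 ± 0.15, adjusted p = 0.114), ATP5MK (−0.40 ± 0.24), NDUFAF7 (−0.39 ± 0.26), COX7A1 (−0.37 ± 0.24) and COX6B2 (−0.36 ± 0.26). COX14 had 213 and 224 after knockdown, against 300.4 and 329 in controls, with no overlap. SDHAF1 had 216 and 190 after knockdown, against 131 and 147 in controls.

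These counts depended on which arrays set the spread. With the 2 NU7441 arrays left out of the fit, so that only knockdown and control arrays entered, 16 of the 43 genes passed, 13 higher and 3 lower, against 6.89% higher and 12.3% lower of all genes in the same fit (24.7% and 16.5% of the bright ones). The 13 were COX5B, COX6C, COX7A2, COX7C, COX8A, COX7B2, COX7A2L, COX17, SDHAF1, SDHAF2, UQCC2, UQCC3 and ATP5MJ, and the 3 were COX5A, COX14 and ATP5MK. In that fit COX5B was at 0.51 ± 0.11 (adjusted p = 0.0049) and ATP5MJ, with 1186 and 1203 after knockdown against 904 and 924 in controls, at 0.39 ± 0.08 (adjusted p = 0.00419). In the fit over all groups the call on COX7A2L was lost in 7 of 14 alternatives, among them each omission of a control or knockdown array. Omission of 1 NU7441 array leaves that group without spread, so it nearly repeats the fit of knockdown and control arrays alone.

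Knockdown and NU7441 were also set against each other, although these groups differ in time (96 h and 24 h) and in siRNA transfection as well as in how DNA-PKcs was targeted, and these cannot be told apart. In knockdown cells 4 genes were higher than in NU7441-treated cells and 2 lower, against 5.83% and 2.84% of all genes (8.67% in all) and 15.9% and 14.0% of bright ones (29.9% in all). ATP5MK was 2.04-fold higher (1.03 ± 0.24, adjusted p = 0.0314), UQCRHL 1.98-fold (0.98 ± 0.15, adjusted p = 0.00797), COX20 1.37-fold (0.45 ± 0.09, adjusted p = 0.0177) and UQCRC2 1.44-fold (0.53 ± 0.14, adjusted p = 0.0429). COX8A (−0.30 ± 0.07, adjusted p = 0.0338) and COX6A1 (−0.24 ± 0.06, adjusted p = 0.0341) were lower. UQCRC2 had 618 and 594 after knockdown and 370 and 476 under NU7441, with controls between them at 524 and 550. COX5A was at 0.55 ± 0.16 (adjusted p = 0.0646), SDHAF1 at 0.56 ± 0.18 and UQCRH at −0.62 ± 0.20, without passing. COX7A2L, the gene called in both comparisons with control, was at −0.04 ± 0.12 between the treatments. These calls were all lost without either knockdown replicate, and those on COX8A and UQCRHL remained without either control replicate.

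Other genes of the same machinery have names that the rule does not cover. Of 35 measured assembly factors with other names (42 listed), 7 were higher and 14 lower under NU7441, beside the 10.8% higher and 22.4% lower among all genes and the 39.0% and 28.5% among bright ones. COA6, a copper-handling factor of complex IV, had 98.6 and 134 under NU7441, 254 and 214 after knockdown, and 344 and 371 in controls (−1.64 ± 0.19, adjusted p = 8.75e-04). COA1, a factor of complexes I and IV, was at 17.6 and 93.2 under NU7441, so its replicates differed widely, with 167 and 133 after knockdown and 160 and 178 in controls (−2.06 ± 0.59, adjusted p = 0.0263). ATPAF2, a chaperone of the ATP synthase head, had 116 and 124 under NU7441, 96.8 and 78.8 after knockdown, and 61.9 and 66.8 in controls (0.90 ± 0.21, adjusted p = 0.0125). PNKD, a mitochondrial protein whose place in this list is less certain, rose as well (0.80 ± 0.19, adjusted p = 0.0118). The calls on COA1 and ATPAF2 were lost without either control replicate and that on PNKD without control replicate 1, while that on COA6 held in all 14 alternatives. After knockdown 0 of the 35 passed by limma (7 higher and 3 lower at an unadjusted p under 0.05, where the share of all genes was not counted).

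Of 11 measured regulators of mitochondrial biogenesis (22 listed), 1 was higher and 3 lower under NU7441, which is near the 10.8% and 22.4% of all genes, so the values below describe single genes and not the list. SIRT1, a deacetylase that acts on PGC-1 coactivators, rose, with 203 and 168 under NU7441, 118 and 131 after knockdown, and 126 and 115 in controls (0.62 ± 0.19, adjusted p = 0.032). NFE2L2, the antioxidant factor NRF2, fell, with 48.1 and 78.4 under NU7441, 110 and 87.8 after knockdown, and 153 and 150 in controls (−1.30 ± 0.26, adjusted p = 0.00698). ESRRB and ESRRG, orphan nuclear receptors, fell too, but lay near the lower limit, with ESRRB at 16 and 18.1 under NU7441. The calls on SIRT1, NFE2L2 and ESRRB were lost without either control replicate (adjusted p up to 0.223, 0.0765 and 0.141). After knockdown 0 of the 11 passed by limma. At an unadjusted p under 0.05, where the share of all genes was not counted, 0 were higher and 2 lower. NRF1, the factor whose letters were searched above, had 32.1 and 59.3 under NU7441, 86.9 and 87.9 after knockdown, and 76.9 and 58.1 in controls, and did not pass (adjusted p = 0.151).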

How the data were processed

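The values are linear array intensities as the authors deposited them, per the deposited value table; how they were normalized is not given in the sources used. Per the submitters' platform annotation, 15835 of 44629 probesets have 1 gene symbol, 0 have several and 28794 have none; all 15835 IDs matched the GRCh38.p14 gene table. Each gene was taken by its probeset with the highest mean log2 intensity, which gave 14812 genes. Values were log2-transformed with no further scaling and tested in limma 3.58.1 (R 4.3.3) in 1 fit over 3 groups of 2 arrays (3 residual degrees of freedom), with a mean-variance trend, two-sided tests and Benjamini-Hochberg adjustment over all genes at 0.05; SE is the moderated standard error. The number of arrays limits the precision. The test was checked on simulated data with equal spread in all groups, which does not cover the wider gap between the NU7441 replicates. Genes named by rule were the 2 highest and 2 lowest fold changes under NU7441 in each complex or assembly class and in each related list, the 5 highest and 5 lowest after knockdown and between the treatments, and isoform pairs; the other respiratory genes, ESRRG and NRF1 were named after their values were seen. The respiratory genes and the lists were chosen with earlier results of these data known. Replicate numbers did not pair arrays (correlations of deviations -0.0052, -0.013 and -0.068). Alternatives were quantile normalization, median centring, no trend, omission of dim genes, an offset of 15 taken off, the mean of all probesets, a replicate block, the compared groups alone and omission of each array.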

Additional observations from a re-analysis of the deposited data

How the results depend on the processing

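The 17 calls under NU7441 fell to 9 without the mean-variance trend, and omission of each array gave 10 to 29. The 1 knockdown call became 9 after median centring, 16 with the compared groups alone, and 0 without the trend, with an offset taken off or with a replicate block; omission of each array gave 0 to 16. The 6 calls between knockdown and NU7441 became 1 without the trend and 3 with the compared groups alone, and omission of each array gave 0 to 18. With the replicate number as a block, the calls were 17, 0 and 4 in the 3 comparisons, and the arrays share only a number. Apart from the fit of knockdown and control arrays alone, the shares of all genes called in these fits are not given here. The counts therefore do not describe the set.

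Median log2 fold changes relative to all genes under NU7441 (0.18 for all 43 genes, 0.61 for common complex IV subunits, 0.19 for assembly factors) were -0.15, 0.30 and -0.078 after quantile normalization, and 0.48, 0.91 and 0.49 with the offset taken off. Without dim genes they were 0.037 for the respiratory genes left, 0.43 for complex IV and -0.020 for assembly factors. The common complex IV subunits were all bright, with a median of 0.37 beside 0.21 for bright genes, which were not matched to them in brightness. For complex IV after knockdown, 0.31 became 0.19 after quantile normalization and 0.19 without dim genes, and 0.39 with the offset taken off. The complex IV median itself was 0.22 after knockdown, beside 0.11 for the same unmatched bright genes. For complex IV in knockdown against NU7441, -0.21 became -0.072 and -0.36 under quantile normalization and the offset. Omission of each array gave 0.14 to 0.21, 0.48 to 0.72 and 0.14 to 0.31 under NU7441 (all genes of the set, complex IV, assembly factors), 0.16 to 0.24, 0.24 to 0.36 and 0.15 to 0.28 after knockdown, and 0.0074 to 0.08, -0.32 to -0.11 and -0.0011 to 0.11 between the treatments.

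After median centring, COX7B (0.27) and NDUFAF8 (0.25) were higher under NU7441, and COX6A1 was lower (-0.24) with the mean of its probesets. The all-gene median under NU7441 was -0.23 as deposited, 0.01 after quantile normalization and 0.08 after median centring. The cause of these shifts was not tested. Dim genes lie near the lower limit of the deposited values, which limits what their fold changes can show.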

Other observations

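The 4 symbols that the naming rule matched but that are not protein-coding were read from their own probesets. NDUFB2-AS1, an antisense RNA of a complex I gene, had 95.7 and 89.4 under NU7441, 57.5 and 72.7 after knockdown, and 56.1 and 52.4 in controls. Whether the array signal keeps it apart from its sense partner is not given in the sources used here. NDUFA6-DT, a divergent transcript, had 21.2 and 20.8 under NU7441, 27.2 and 24.4 after knockdown, and 44.1 and 48.1 in controls on its brighter probeset. Under NU7441 that probeset passed in limma over all probesets (-1.13 ± 0.22, adjusted p = 0.00693). The dimmer one, near the lower limit, did not (-0.29 ± 0.14, adjusted p = 0.153). UQCRBP1, a pseudogene of UQCRB, had 296 and 251 under NU7441, 339 and 277 after knockdown, and 220 and 217 in controls. Both treatments lay above both controls, but neither passed in limma over all probesets. The values were 0.32 ± 0.17 under NU7441 (adjusted p = 0.197) and 0.49 ± 0.17 after knockdown (adjusted p = 0.193). COX10-DT did not separate the groups, with 23.9 and 43.5 under NU7441, 38.1 and 56.8 after knockdown, and 40.2 and 40.3 in controls.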
